A study of Homo sapiens with 3 samples.

Results

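The histone genes described here are those of the replication clusters, taken as every row of the gene expression table whose symbol begins with HIST1H, HIST2H, HIST3H or HIST4H. There were 70 such genes among 21572 rows. RNA was sequenced from Hep-G2, an established human hepatoma cell line, in 3 libraries with 1 library per group. The sh#7 cells carried the shRNA (short hairpin RNA) TRCN0000246247 and the sh#2 cells carried TRCN0000255402, both against FTO, an enzyme that removes the methyl mark m6A from RNA, and the control cells carried SHC002, which the submitters call the scramble. All 3 cultures were Hep-G2 at passage 21 in serum-containing DMEM, the design text ranks sh#7 as the stronger knockdown, and FTO stood at 2.55 FPKM in sh#7, 5.29 FPKM in sh#2 and 9.02 FPKM in control. FPKM is a count of sequenced fragments divided by transcript length and by the number of fragments mapped in the library. With 1 library per group nothing here measures the spread between cultures, so no test was made, and an effect of FTO cannot be told apart from a difference between lines.

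Histones are the proteins around which DNA is wound. H3 with H4 and H2A with H2B form the nucleosome core, and H1 binds the linker DNA between cores. The genes of the replication clusters are switched on as DNA is copied in S phase. They have no introns as a rule, and their messages end in a short stem and loop, bound by the protein SLBP, in place of a poly(A) tail. Some members also give longer, polyadenylated messages, known mainly from cells that have left the cell cycle. A library that selects poly(A) RNA therefore records the usual histone messages poorly. The labels do not say whether these libraries were selected for poly(A) or depleted of ribosomal RNA.

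The stem and loop are shown because they carry this dependence on the tail. A search of GENCODE 29 transcripts for a perfect stem of 6 bases around a loop of 4 bases found 4 sequences of 16 bases that recurred in at least 3 members. They were present in 28 of the 70 genes, each of which held 1 of these forms. Stems are in capitals and loops in lower case, given 5′ to 3′ as DNA.
Form in 15 members of H2A, H2B and H3: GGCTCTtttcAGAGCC
Form in 5 members of H2B and H3: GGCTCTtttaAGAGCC
Form in 5 members of H4: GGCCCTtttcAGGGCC
Form in 3 members of H4: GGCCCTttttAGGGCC
Counted from 1 at the 5′ end of the first form, the second form differed by C10A, the third by T4C and A13G, and the fourth by T4C, C10T and A13G. The changes at positions 4 and 13 lie opposite each other in the stem, so the pairing was kept. The first form occurred in 20 GENCODE genes in all, of which 2 were not cluster histone genes by symbol, and the second in 6, of which 1 was not. For the other 42 members no such stem was in the model, but 32 of the 70 had models that hold the coding part only and so could not show it.

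The stem is shown with 5 bases on each side, in lower case like the loop, for compared members and for HIST2H2BE, chosen after their values were seen.
HIST1H2AC: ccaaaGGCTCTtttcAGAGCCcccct
HIST1H2BD: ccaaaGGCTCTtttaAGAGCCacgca
HIST1H3H: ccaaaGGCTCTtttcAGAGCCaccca
HIST1H4E: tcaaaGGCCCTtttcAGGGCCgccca
HIST2H2BE: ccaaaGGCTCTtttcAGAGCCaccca
In HIST1H2AC the longest GENCODE model ran 1128 bases beyond the stem, in HIST1H4E 1022 bases, in HIST1H3H 769 bases and in HIST2H2BE 1729 bases. Each of these models ended with a poly(A) signal hexamer, AATAAA or ATTAAA, within its last 40 bases. In all, 16 members had a model with the stem followed by such an end.

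Cluster histone genes were low in all 3 libraries. Only 16 of the 70 genes (22.9%) reached a mean of 1 FPKM over the libraries, the level from which differences are given, against 11069 of all 21572 genes (51.3%). A further 33 were above 0 with a mean between 0.0133 and 0.967 FPKM and a median of 0.205 FPKM, and 21 (30.0%) were listed at 0 throughout, against 20.3% of all genes. By library, 25 members were at 0 in sh#7, 27 in sh#2 and 29 in control. Nearest the minimum on the upper side were HIST1H2BG with a mean of 1.05 FPKM and HIST1H4H with 1.02 FPKM, and on the lower side HIST1H2BN with 0.967 FPKM and HIST2H2BE with 0.878 FPKM.

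Few fragments lie behind these levels. Depth was chosen to bring the deposited values of low, intronless genes near whole numbers of fragments. It came to about 48 M (mega) fragments in sh#7, 50.75 M in sh#2 and 48.75 M in control. With it, 52 of 83 such values in sh#7 (62.7%), 36 of 67 in sh#2 (53.7%) and 43 of 63 in control (68.3%) lay within 0.08 of a whole fragment. The rest did not. The share that would lie there by accident was not estimated. On this estimate and with the lengths used, HIST1H1C had the most fragments, about 308 in sh#7, 270 in sh#2 and 196 in control. The order of members rests on those lengths. HIST1H2AC was taken at 519 bases, while its shortest GENCODE model has 1462 bases. HIST1H4H had about 14, 6 and 4. The intervals below are 95% intervals from such estimates, cover counting error only, and would be narrower where the authors' gene model was longer than the one used. The depth model was chosen after several fits to these data, and other gene sets gave other depths, so the fragment numbers are approximate.

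Of 21 listed replication-independent histone genes, whose messages carry poly(A) tails as a rule, 20 were in the table, 11 were compared and 6 were at 0 in every library, which is 30% as among the cluster members. The most abundant of them were far above any cluster member. H1F0, the replacement linker histone, was at 578 FPKM in sh#7, 641 FPKM in sh#2 and 889 FPKM in control. H2AFZ, which encodes the variant H2A.Z, was at 514, 528 and 441 FPKM in the same order, and H3F3B, which encodes H3.3, at 328, 316 and 288 FPKM. All cluster members together summed to 99.4 FPKM in sh#7, 88.2 FPKM in sh#2 and 68.4 FPKM in control, so each of these single genes stood above the whole family in every library. RNAs that lack a poly(A) tail were low as well. Of 29 listed, 16 were in the table, 5 of them at 0 throughout, with a median of 0.931 FPKM. VTRNA1-2, a vault RNA, was listed at 75.2 FPKM in sh#2 and at 0 in sh#7 and control. Fragments were not estimated for the RNAs on this list, so a high value can rest on few of them. Their low levels were not read as a sign of poly(A) selection. RPPH1, the RNA of RNase P, was at 2.56 FPKM in sh#7, 5.30 FPKM in sh#2 and 2.06 FPKM in control. RNU11, RNU4ATAC and RNU6ATAC, RNAs of the minor spliceosome, were each listed at 0 in at least 1 library.

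**Figure D1:**
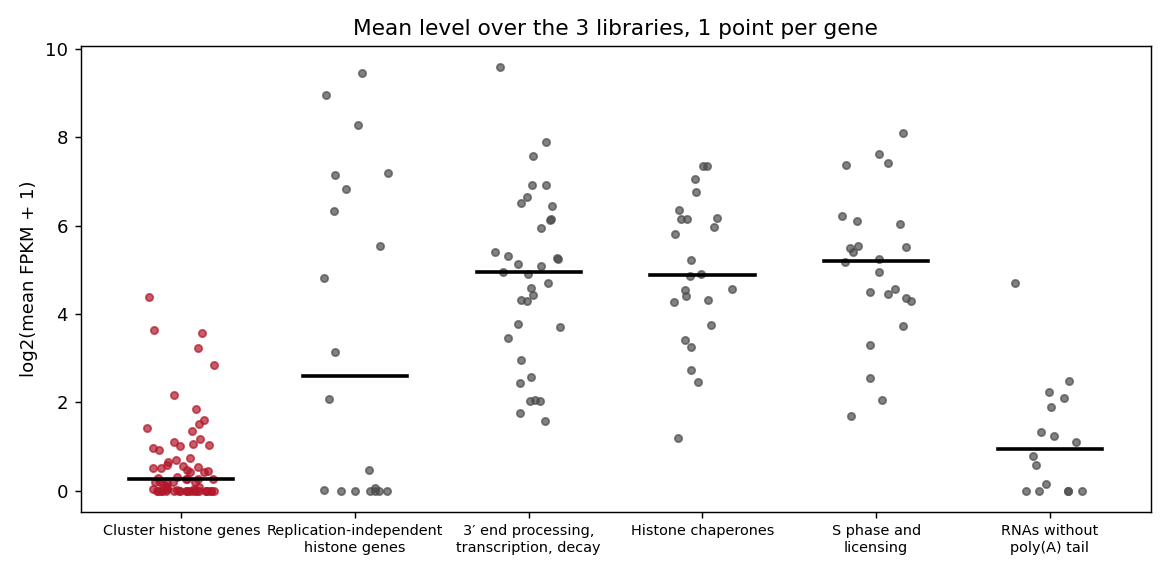
Mean level of each gene over the 3 libraries, as log2(mean FPKM + 1) on the vertical axis, with 1 point per gene and a bar at the median of each list. The median of the cluster histone genes lies below those of the replication-independent histones, histone message factors, chaperones, S phase genes and RNAs without a poly(A) tail, though single points overlap.

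Sequence likeness bears on which members can be read. Some members of a histone class are near-identical in their coding part, and the labels do not say how reads that match several genes were divided. For each member the shortest GENCODE model was cut into all stretches of 50 bases, and those with no exact copy in another gene were counted. The share of such stretches was 0 for 6 members and under 20% for 11. Of the 6 with none, 4 were at 0 in every library, and the other two, HIST1H3D and HIST1H4K, had means of 0.486 and 0.0470 FPKM. Among the 59 members with 20% or more, 16 were at 0. The 21 genes at 0 had a median unique share of 100%, as had the 32 members with coding-only models. By this measure most of the genes at 0 had stretches of their own. A stretch counts as unique even if it differs from another gene at 1 base. The measure therefore cannot show how reads were divided, and its part in the values at 0 was not tested.

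**Figure D2:**
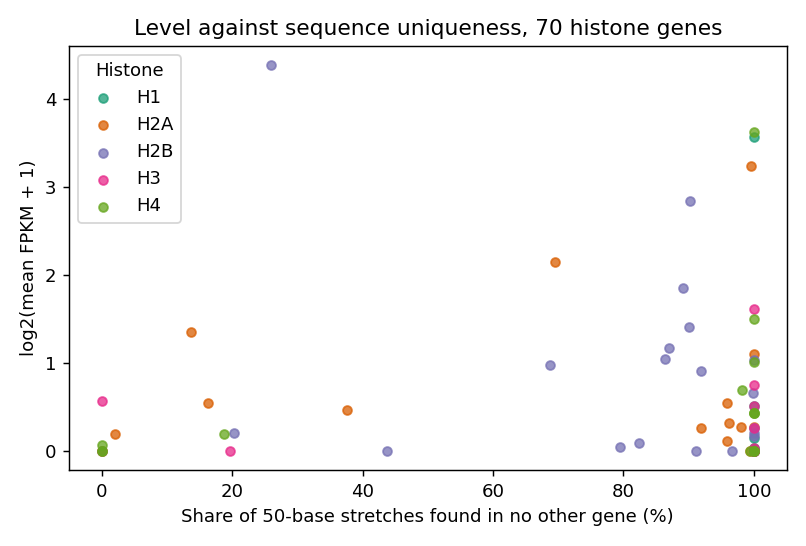
Mean level over the 3 libraries, as log2(mean FPKM + 1), against the share of 50-base stretches of each member found in no other gene, coloured by histone class. The 6 members with a share of 0 lie at or near 0 on the vertical axis, and the highest member, HIST1H2BK, has a share of 25.9%.

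Of the 6 linker histone H1 genes in the clusters, 1 was compared. H1F0, a linker histone gene outside the clusters, was far higher and was lowest in sh#7, as given above. HIST1H1C, which encodes H1.2, was at 13.4 FPKM in sh#7, 11.1 FPKM in sh#2 and 8.37 FPKM in control, so that both knockdown lines lay above control and sh#7 was highest. The ratio to control was 1.60 in sh#7 (95% counting interval 1.33 to 1.92) and 1.32 in sh#2 (1.10 to 1.60). Of the other 5 H1 genes, HIST1H1E was highest, at 0.449 FPKM in sh#7, 0.653 FPKM in sh#2 and 0.185 FPKM in control. HIST1H1T, the testis form, was at 0.0400 FPKM in sh#2 and 0 in the others. HIST1H1D was at 0 in every library.

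Among 16 H2A genes, 4 were compared. HIST1H2AC was at 12.9 FPKM in sh#7, 6.50 FPKM in sh#2 and 5.95 FPKM in control. Here sh#7 stood well above the other libraries, while sh#2 lay close to control. Its difference on the log2(FPKM + 1) scale was 0.998 in sh#7 and 0.11 in sh#2, and its ratio was 2.16 (1.64 to 2.87) in sh#7 and 1.09 (0.800 to 1.51) in sh#2. HIST2H2AC went the other way, at 2.25 FPKM in sh#7, 4.11 FPKM in sh#2 and 3.99 FPKM in control. It was lowest in sh#7, with a ratio of 0.563 to control (0.334 to 0.926). In sh#2 the ratio was 1.03 (0.687 to 1.58). HIST1H2AE, at 1.21, 1.35 and 0.895 FPKM in sh#7, sh#2 and control, and HIST1H2AM, at 1.62, 1.36 and 1.68 FPKM, had intervals that span 1 in both lines. HIST1H2AM also had a unique share of only 13.7%, so its reads could belong to other H2A genes.

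H2B supplied the largest share of the family, 43.2% of the summed mean level, and 7 of its 20 genes were compared. HIST1H2BK, the highest member, was at 24.5 FPKM in sh#7, 21.8 FPKM in sh#2 and 13.5 FPKM in control. Both lines were above control, by 1.81-fold in sh#7 (1.39 to 2.396) and 1.61-fold in sh#2 (1.23 to 2.14). HIST1H2BK had a unique share of only 25.9%, so part of its reads could belong to other H2B genes. Its intervals rest on a 381-base model that holds the coding part only. HIST1H2BC, the partner of HIST1H2AC across a shared promoter, was at 2.15 FPKM in sh#7, 1.82 FPKM in sh#2 and 1.02 FPKM in control, with a ratio of 2.12 in sh#7 (1.12 to 4.08). HIST1H2BD was at 7.28, 5.76 and 5.47 FPKM in the same order, and its interval spans 1 in both lines. HIST1H2BL and HIST1H2BO were high in sh#2 alone. HIST1H2BL was at 2.09 FPKM in sh#7, 3.85 FPKM in sh#2 and 1.91 FPKM in control, a ratio of 2.01 in sh#2 (1.11 to 3.61). HIST1H2BO was at 0.750, 1.70 and 0.739 FPKM, with about 8, 19 and 8 fragments, and its ratio of 2.30 in sh#2 had an interval of 0.954 to 6.02. HIST1H2BJ and HIST1H2BG lay between 0.901 and 1.38 FPKM in every library.

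The core histones H3 and H4 were represented by few genes. HIST1H3H was the 1 compared member of 13 H3 genes, at 2.58 FPKM in sh#7, 2.21 FPKM in sh#2 and 1.36 FPKM in control. Of 15 H4 genes, 3 were compared. HIST1H4E, the second highest member of the family, was at 10.0 FPKM in sh#7, 12.7 FPKM in sh#2 and 11.5 FPKM in control, so sh#7 was lowest and sh#2 highest. The ratios were 0.873 in sh#7 (0.635 to 1.19) and 1.11 in sh#2 (0.829 to 1.48), and both intervals span 1. HIST1H4C was at 2.13, 1.95 and 1.41 FPKM. HIST1H4H was at 1.81 FPKM in sh#7, 0.758 FPKM in sh#2 and 0.509 FPKM in control. Its ratio in sh#7, 3.54, had a wide interval of 1.12 to 14.8. HIST1H4H reached the minimum mean through its sh#7 value alone, and HIST1H2BO through its sh#2 value alone, so being compared favoured a high value in those libraries and their ratios there are given as descriptions only.

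**Figure D3:**
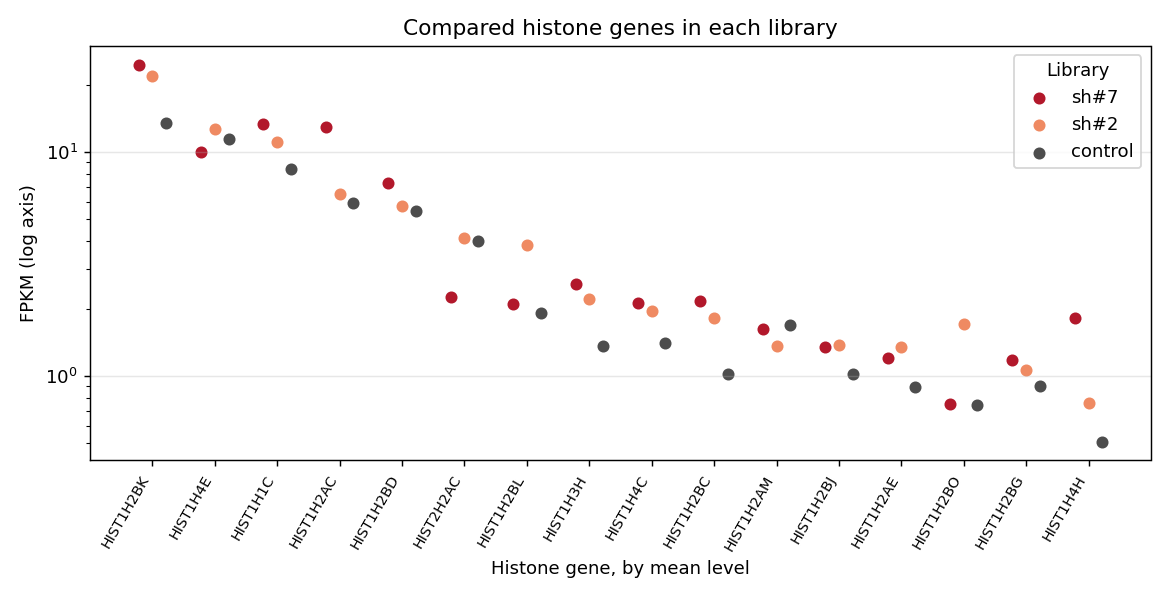
FPKM of the 16 compared histone genes in sh#7, sh#2 and control, on a log axis, ordered by mean level. HIST1H2BK, HIST1H1C and HIST1H2BC have control lowest, HIST1H2AC has sh#7 far above the rest, and HIST2H2AC has sh#7 lowest.

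By count, 0 of 16 compared members passed 2-fold in either direction on the log2(FPKM + 1) scale in sh#7 against control, where 2.35% of all compared genes were higher and 2.48% lower. In sh#2 against control the count was also 0, with 0.506% of all genes higher and 0.723% lower, and in sh#7 against sh#2 it was 0, with 1.45% and 1.52%. The pseudocount of 1 weighs on genes of 1 or 2 FPKM, and with 0.1 in its place 3 members were past 2-fold higher in sh#7 against control, HIST1H2AC, HIST1H2BC and HIST1H4H (which was compared only through sh#7), against 3.56% of all genes, and 0 were lower, against 3.29%. In sh#2 against control 1 member, HIST1H2BO, which was compared only through sh#2, was then past 2-fold higher, against 0.958% of all genes. In sh#7 against sh#2 1 was higher (HIST1H4H) and 1 lower (HIST1H2BO), against 2.28% and 2.17% of all genes, and the same limit holds for both. The filter bears on the 1.5-fold counts below in the same way where they hold HIST1H4H or HIST1H2BO, so nothing is read from these counts. At 1.5-fold with the pseudocount of 1, 6 members were higher in sh#7 and 1 was lower, where 9.61% and 6.18% of all genes were. Those higher were HIST1H1C, HIST1H2AC, HIST1H2BC, HIST1H2BK, HIST1H3H and HIST1H4H, and the lower one was HIST2H2AC. In sh#2, 3 were higher by that measure (HIST1H2BK, HIST1H2BL and HIST1H2BO), where 2.67% of all genes were, and 0 were lower, where 2.72% were. In sh#7 against sh#2, HIST1H2AC and HIST1H4H were higher by 1.5-fold, 2 genes, where 5.14% of all genes were, and 3 were lower (HIST1H2BL, HIST1H2BO and HIST2H2AC), where 4.55% were.

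In sh#7 against control, 13 of 16 members had a positive difference, as had 67.2% of all compared genes, and the median was 0.29 against 0.16 for all genes. In sh#2 against control, 15 of 16 were positive, as were 67.2% of all genes, and the median was 0.27 against 0.10. Both counts rest on 1 shared control library, so they are not separate evidence. In sh#7 against sh#2 the median was 0.12 against 0.05, and 10 of 16 (62.5%) were positive, near the 57.3% of all genes. FPKM is divided by the number of fragments mapped in the library. The 100 highest genes held 28.98% of the summed FPKM in sh#7, 31.3% in sh#2 and 34.7% in control. This share moves with the shift of all genes. Under median-of-ratios scaling the median of all genes was -0.01 in sh#7 and close to 0 in sh#2, and that of the same 16 members was 0.16 in sh#7 and 0.20 in sh#2.

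**Figure D4:**
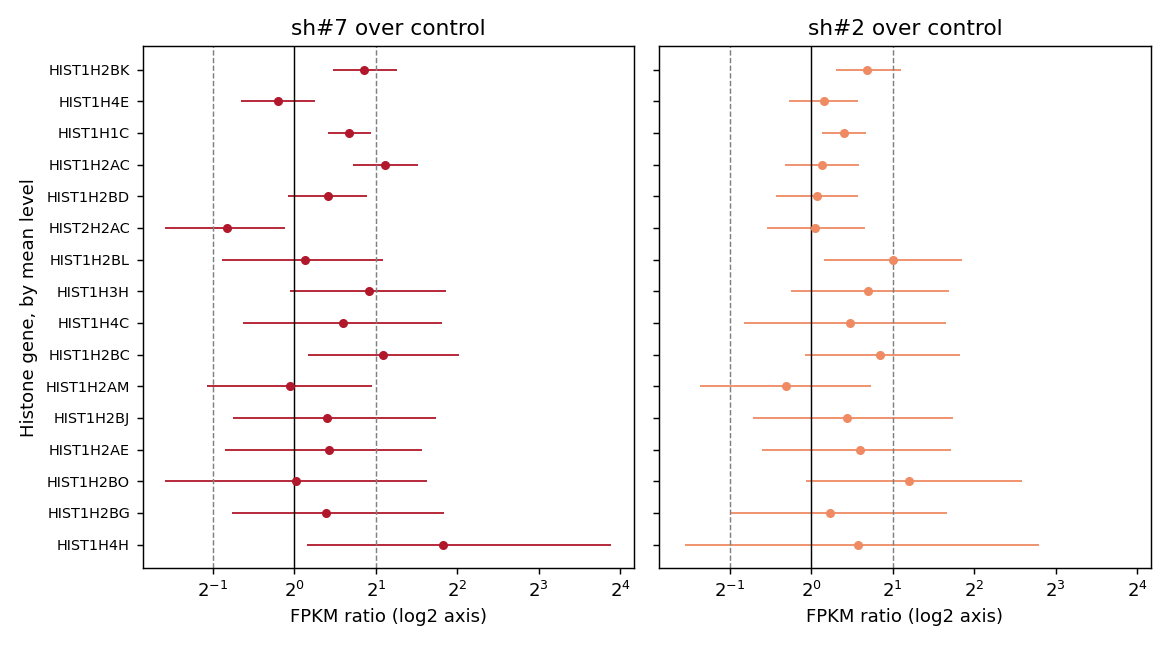
Ratio of FPKM to control for the 16 compared histone genes in sh#7 (left) and sh#2 (right), on a log2 axis, with 95% intervals for counting error only, a solid line at 1 and dashed lines at 2-fold. In sh#7 the intervals of 5 genes lie above 1, among them HIST1H4H, which was compared only through its sh#7 value. That of HIST2H2AC lies below 1, and in sh#2 those of 3 genes lie above 1. The intervals do not cover the choice of scaling, and all compared genes had median differences of 0.16 in sh#7 and 0.10 in sh#2. The share of all genes with such intervals was not computed, so nothing is read from these counts.

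A sum over members is less affected than a single gene by how reads were divided among near-identical genes. The 16 compared members summed to 87.2 FPKM in sh#7, 79.4 FPKM in sh#2 and 60.2 FPKM in control. The ratios to control were 1.45 (1.30 to 1.61) in sh#7 and 1.32 (1.18 to 1.47) in sh#2. These intervals do not cover the choice of scaling. Under median-of-ratios scaling, where HIST1H4H fell under the minimum, the log2 ratio went from 0.53 to 0.33 in sh#7. That is below the lower end of its interval, 0.38 in log2. In sh#2 it went from 0.40 to 0.28, with a lower end of 0.24. By class, over all members, the ratio in sh#7 was 1.63 for H1 (1.37 to 1.94), 1.60 for H2B (1.36 to 1.90), 1.42 for H2A (1.17 to 1.72), 1.41 for H3 (0.898 to 2.23) and 1.11 for H4 (0.863 to 1.43). In sh#2 it was 1.37 for H1 (1.15 to 1.64), 1.48 for H2B (1.25 to 1.75), 1.07 for H2A (0.879 to 1.31), 0.980 for H3 (0.605 to 1.59) and 1.18 for H4 (0.921 to 1.51). In bulk RNA a larger share of cells making histone messages and more such RNA in each cell cannot be told apart.

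The sum was split by whether a member is known from other work to give polyadenylated messages. Of 9 such genes, 6 were compared: HIST1H1C, HIST1H2AC, HIST1H2BC, HIST1H2BD, HIST1H2BJ and HIST1H2BK. Of the other 61 members, 10 were compared. The 6 genes held 56.7% of the family's summed level. They summed to 61.5 FPKM in sh#7, 48.3 FPKM in sh#2 and 35.4 FPKM in control, 1.74 times control in sh#7 (1.53 to 1.99) and 1.37 times in sh#2 (1.19 to 1.57). The other 10 compared genes summed to 25.6 FPKM in sh#7, 31.1 FPKM in sh#2 and 24.9 FPKM in control, 1.03 times control in sh#7 (0.858 to 1.24) and 1.25 times in sh#2 (1.05 to 1.49). In sh#7 the summed level was thus well above control in the known polyadenylated genes. In the others sh#7 and control were close and sh#2 was highest. The split does not part messages with a tail from messages without one. In the second set HIST1H4E, HIST1H3H and HIST1H4H also have models with the stem followed by a poly(A) signal hexamer. In the first set the model of HIST1H2BK holds the coding part only. Without HIST1H2BK the 6 genes became 5. Their ratio was then 1.70 in sh#7 (1.48 to 1.94) and 1.22 in sh#2 (1.05 to 1.40). Without HIST1H4E the other set became 9 genes. Its ratio was then 1.17 in sh#7 (0.928 to 1.46) and 1.37 in sh#2 (1.10 to 1.70). With these genes left out the first set stayed above the second in sh#7, while in sh#2 the order of the sets turned. The difference between the sets in their ratios was not tested. Several other groupings of the members were also computed. Of 22 members with a GENCODE model ending in AATAAA or ATTAAA, 7 reached 1 FPKM and the median level was 0.197 FPKM, against 9 of 48 and 0.174 FPKM for the rest. Among models that go beyond the coding part, which alone can show such an end, the rest were 16 genes, of which 4 reached 1 FPKM, with a higher median of 0.363 FPKM. Of 28 members whose model held the stem, 9 reached 1 FPKM, against 2 of the 10 without it whose models go beyond the coding part.

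**Figure D5:**
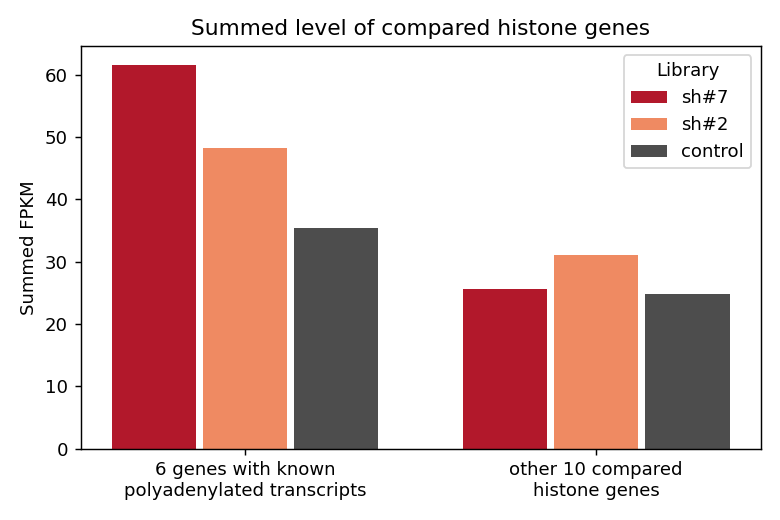
Summed FPKM of the 6 compared members known to give polyadenylated messages and of the other 10 compared members, in sh#7, sh#2 and control, with 1 library per bar and so no error bar. The bars run 61.5, 48.3 and 35.4 FPKM in the first set and 25.6, 31.1 and 24.9 FPKM in the second.

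Of the other 3 genes on that list, HIST2H2BE was just under the minimum mean. It was at 1.62 FPKM in sh#7, 0.614 FPKM in sh#2 and 0.402 FPKM in control, and its 2224-base RefSeq model put about 153, 62 and 39 fragments behind these levels. HIST4H4 was at 0.628, 0.205 and 0.207 FPKM, with about 5, 2 and 2 fragments. HIST3H2A was at 0 throughout, as were the other two genes of the HIST3 cluster. The testis forms HIST1H2AA, HIST1H2BA and HIST3H3 were also at 0 throughout.

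Many members lie head to head and share 1 promoter region. In RefSeq on GRCh38.p14, 12 pairs of members had divergent starts less than 1000 bases apart, and in 3 of these pairs both genes were compared. The promoters of the following pairs are shown because their genes took different courses in sh#7. HIST1H2BC and HIST1H2AC start 244 bases apart, and both were highest in sh#7. HIST2H2BE and HIST2H2AC start 234 bases apart, and in sh#7 HIST2H2BE was highest while HIST2H2AC was lowest. Each sequence runs from 250 bases before to 50 bases after the start, 5′ to 3′ on the gene's strand, from RefSeq on GRCh38.p14. Capitals mark the motif TATAAA, the motif CCAAT, and the octamer, which is ATTTGCAT, each on either strand.
HIST1H2AC, plus strand, chr6:26123922-26124221: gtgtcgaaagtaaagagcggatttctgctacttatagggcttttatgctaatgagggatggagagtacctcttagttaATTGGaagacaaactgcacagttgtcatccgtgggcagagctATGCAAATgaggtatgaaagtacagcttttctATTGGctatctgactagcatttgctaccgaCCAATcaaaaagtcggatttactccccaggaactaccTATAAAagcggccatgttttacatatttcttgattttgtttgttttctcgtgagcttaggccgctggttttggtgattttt
HIST2H2AC, plus strand, chr1:149886668-149886967: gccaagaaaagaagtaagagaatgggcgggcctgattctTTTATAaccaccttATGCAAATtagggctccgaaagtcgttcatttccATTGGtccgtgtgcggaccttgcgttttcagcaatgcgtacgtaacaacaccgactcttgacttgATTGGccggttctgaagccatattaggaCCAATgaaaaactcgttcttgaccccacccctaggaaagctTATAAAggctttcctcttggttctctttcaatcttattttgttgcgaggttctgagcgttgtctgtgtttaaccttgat
The first held TATAAA once, CCAAT in 3 places and the octamer once, and the second held TATAAA in 2 places, CCAAT in 3 and the octamer once, with no overlap among them. The octamer is the element that the factor POU2F1 binds in H2B promoters.

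Across the 60 members with a RefSeq promoter, CCAAT was found on either strand in 83.3%, against 34.6% of all 35116 promoters of the same length. TATAAA was found in 65.0% against 11.5%, and ATTTGCAT in 43.3% against 1.77%. The elements followed the classes. ATTTGCAT was in 14 of 18 H2B and 11 of 14 H2A promoters, in 1 of 9 H3 promoters and in 0 of 13 H4 and 0 of 6 H1 promoters. CCAAT was in every H1, H2A, H2B and H3 promoter matched and in 3 of 13 H4 promoters. Shared promoters count once for each gene of a pair. Of the 15 compared members with a promoter, 9 held the octamer and 13 held CCAAT.

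Factors that make and use histone messages had a median level of 30.0 FPKM, though some lay below the highest members. Of 38 listed factors for transcription, 3′ end processing and decay, 35 were in the table and all 35 were compared. In sh#7 and sh#2 against control 0 of them passed 2-fold, with medians of 0.27 and 0.18. All compared genes had medians of 0.16 and 0.10. Of these, 2.35% were past 2-fold higher and 2.48% lower in sh#7, and 0.506% and 0.723% in sh#2. SLBP, which binds the stem and loop, was at 69.9 FPKM in sh#7, 63.2 FPKM in sh#2 and 50.3 FPKM in control. NPAT, the coactivator of the histone clusters, was at 2.82, 2.30 and 1.95 FPKM, and LSM11, a protein of the U7 particle that directs cleavage, was at 2.87, 3.24 and 3.22 FPKM. The most abundant listed factors were SNRPB, SNRPG and SNRPF, core proteins of spliceosomal and U7 particles, of which SNRPB was at 793, 795 and 722 FPKM, SNRPG at 252, 277 and 184 FPKM and SNRPF at 193, 218 and 160 FPKM. SLBP, NPAT and LSM11 were named for their roles after their values were seen.

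All 24 histone chaperones and assembly factors were compared, and 0 passed 2-fold against control in either line. Of all compared genes, 2.35% were past 2-fold higher and 2.48% lower in sh#7, and 0.506% and 0.723% in sh#2. The medians of the chaperone list were 0.29 in sh#7 and 0.22 in sh#2, against 0.16 and 0.10 for all compared genes. SSRP1, a subunit of the FACT complex, was at 176 FPKM in sh#7, 171 FPKM in sh#2 and 139 FPKM in control, and NASP, a histone chaperone, at 163, 169 and 151 FPKM. NAP1L1, a chaperone of H2A and H2B, was at 132, 124 and 138 FPKM. Among the replication-independent histones, H2AFY2, which encodes a macroH2A, was the 1 gene past 2-fold, at 66.2 FPKM in sh#7, 39.5 FPKM in sh#2 and 30.6 FPKM in control. The list's medians were 0.19 in sh#7 and 0.18 in sh#2.

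When summed, genes of S phase were highest in sh#7 and lowest in control, as was the sum of the cluster histone genes. This order was not particular to S phase, since the chaperone list summed to 1282, 1243 and 1105 FPKM in sh#7, sh#2 and control. The 10 compared members outside the polyadenylated list were highest in sh#2. All 24 genes of S phase and origin licensing had a positive difference in sh#7 and 23 of 24 in sh#2. Of all compared genes, 67.2% had one in each line. The medians of the list were 0.46 and 0.21, against 0.16 and 0.10 for all compared genes. On the list 0 passed 2-fold. Of all compared genes, 2.35% were past 2-fold higher and 2.48% lower in sh#7, and 0.506% and 0.723% in sh#2. PCNA, the sliding clamp of replication, was at 317 FPKM in sh#7, 302 FPKM in sh#2 and 198 FPKM in control. MCM3, a subunit of the replicative helicase, was at 216, 195 and 174 FPKM, and MCM7, another, at 197, 168 and 142 FPKM. The list summed to 1648 FPKM in sh#7, 1445 FPKM in sh#2 and 1166 FPKM in control. The 18 genes of G2 and M phase had medians of 0.08 and 0.14, and summed to 1197, 1278 and 1130 FPKM. The highest was PLK1, a mitotic kinase, at 169 FPKM in sh#7, 172 FPKM in sh#2 and 148 FPKM in control. The part of the cell cycle in the histone values was not tested.

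The label Hep-G2 was set against marker lists. All 11 hepatocyte and hepatoma markers were compared, with ALB, the albumin gene, at 1947 FPKM in sh#7, 5501 FPKM in sh#2 and 5468 FPKM in control. AFP, the alpha-fetoprotein gene, was at 15.7 FPKM in sh#7, 294 FPKM in sh#2 and 961 FPKM in control, and TTR, the transthyretin gene, at 3.43, 26.6 and 61.1 FPKM. The apolipoprotein genes APOA1, at 1081, 2629 and 2616 FPKM, and APOA2, at 2877, 3424 and 6168 FPKM, were also past 2-fold lower in sh#7. The list summed to 9160 FPKM in sh#7, 16039 FPKM in sh#2 and 20675 FPKM in control. Of its genes, 5 in sh#7 and 2 in sh#2 were past 2-fold lower than control, as were 2.48% and 0.723% of all compared genes. Among markers of other cells, 1 of 6 for blood and 1 of 6 for fibroblasts reached a mean of 1 FPKM, and 0 for endothelial, neural or kidney cells did. The blood list summed to 1.49 FPKM in sh#7, 2.11 FPKM in sh#2 and 2.53 FPKM in control, with PTPRC at 0 throughout, and the fibroblast list to 1.19, 1.79 and 3.77 FPKM, nearly all from PDGFRB in sh#2 and control (0.616, 1.69 and 3.76 FPKM in the same order), with COL1A2 and COL3A1 at 0 throughout. The part of these shifts in the histone values was not tested.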

How the data were processed

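The authors deposited 1 table of FPKM values, with 1 row per gene symbol and 1 column per library. STAR 2.4.0j, HTSeq and Cufflinks 2.2.1 and the build hg19 are named in the submitters' processing notes, without roles. The FPKM scale does not allow a count model. Differences are log2(FPKM + 1) of one library minus another, which understates changes of low genes, given where the mean over libraries reached 1 FPKM. Members and gene lists were chosen with earlier results of these data known. The naming rule took FTO, the 12 highest members, members past 2-fold, the 2 genes on each side of the minimum, and of each list the genes past 2-fold and the 3 highest. Not all list genes it allows are printed, and other names were added after their values were seen.

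Depth was fitted on low values drawn from 677 single-exon or histone genes, taking fragments as FPKM times depth times the length, less 250 bases, in kilobases. This form was chosen after seeing the data. At the depths chosen, 83 values in sh#7, 67 in sh#2 and 63 in control lay in the low range that was scored. Of these, 62.7%, 53.7% and 68.3% were within 0.08 of a whole fragment. Where RefSeq has several transcripts, the shortest GENCODE 29 length was used. Ratios of single genes have exact (Clopper-Pearson) 95% intervals on rounded fragments, and sums have approximate intervals from the counting variance. Intervals cover counting error only. Sequences came from GENCODE 29 and RefSeq (GRCh38.p14). All 70 members matched GENCODE 29 by symbol, and 60 had a promoter. No protein sequences were used. No label names the authors' annotation or their handling of reads that match several genes. The 2-fold rule was tried on simulated data and the stem search on a made-up sequence. The depth fit, the intervals, the unique shares, the motif counts and the scalings were not tried in that way. Python 3.11.15 was used with numpy 2.4.6, pandas 2.3.3 and scipy 1.17.1.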

Additional observations from a re-analysis of the deposited data

Results flagged for a closer look

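HIST1H4E and HIST2H2AC differed from control in opposite directions in the 2 knockdown lines. On the log2(FPKM + 1) scale HIST1H4E was at -0.18 in sh#7 and 0.14 in sh#2, and HIST2H2AC was at -0.62 in sh#7 and 0.035 in sh#2. With 1 library per group the difference between lines was not tested. Opposite signs were found in 2 of 16 compared members (12.5%) and in 25.9% of all compared genes, and the sign of HIST2H2AC in sh#2 turned under both other scalings.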

How the results depend on the processing

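The counts of members past 2-fold depended on the settings. With a pseudocount of 0.1, 3 were higher in sh#7 against control, 1 was higher in sh#2 against control, and 1 was higher and 1 lower in sh#7 against sh#2. At 1.5-fold, 6 were higher and 1 lower in sh#7 against control, 3 were higher in sh#2 against control, and 2 were higher and 3 lower in sh#7 against sh#2. The median difference of the members, given for sh#7 against control, sh#2 against control and sh#7 against sh#2 in that order, was 0.40, 0.43 and 0.16 with a pseudocount of 0.1, and 0.62, 0.14 and 0.25 with a minimum mean of 5 FPKM. It was 0.00 in all 3 without a filter, as most members are at or near 0. It was 0.12, 0.23 and 0.045 with median-of-ratios scaling, where the minimum was applied after scaling and HIST1H4H fell under it, and 0.20, 0.22 and 0.10 with upper-quartile scaling. Summing FPKM per histone class, chosen after seeing the data, gave 0.48, 0.22 and 0.23. The log2 ratio of the summed level in sh#7 against control was 0.33 with median-of-ratios scaling. Under the scalings the sign turned for HIST1H2BL and HIST1H2BO in sh#7 and for HIST1H2BD and HIST2H2AC in sh#2, each against control. Summing members with identical proteins was not run, since no protein table was used. No paired analysis was possible because there were no replicates, and so none could be left out. Low counts limit most members.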
